A study of Mus musculus with 9 samples.

Results

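The genes described here encode the protein factors that start and extend protein chains on the cytoplasmic ribosome. They were taken by name from a table of gene counts: every row whose symbol begins with Eif and a digit, or with Eef1 or Eef2, with retired pseudogene names left out. That rule gave 59 of the 14912 rows, and 58 of them were among the 10983 rows read often enough to test (at least 5 normalized counts in at least 3 of 9 libraries). The exception, Eif3j2, an eIF3 subunit gene copy, had 5 counts over the 3 day 0 libraries and 0 in the other 6; 3 counts, the limit taken for a count of 0, equal 0.156 CPM in the TGFβ-iTreg group and 0.129 CPM in the mTO-iTreg group. A normalized count is a count divided by one size factor for its library, and the rule for members reads names and no measured value.

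The RNA came from CD4+ T cells of the mouse strain B6.Cg-Foxp3tm2(EGFP)Tch/J, whose altered Foxp3 tm2Tch allele, hemizygous in all groups, makes eGFP from the locus of the regulatory T cell factor Foxp3. The study set 3 groups of 3 libraries side by side. The day 0 group was Foxp3 eGFP- cells before culture. The TGFβ-iTreg group was eGFP+ cells after 5 days with anti-CD3 and anti-CD28 (each 1 µg/ml), IL-2 at 300 U/ml and TGFβ at 10 ng/ml. The mTO-iTreg group was eGFP+ cells after 5 days beside mouse colorectal tumour organoids, with those antibodies and with IL-2 at 20 U/ml, with no added TGFβ listed. Age is not given in the sources used here. Nothing in the labels ties libraries to separate mice or cultures, so the p-values cover the spread among these libraries, which may be technical. The groups differ at once in sort gate, culture, IL-2 dose, TGFβ, partner cells and the form of the library codes, and the parts these play cannot be told apart. Xist, an RNA made in female cells, was also higher in every mTO-iTreg library (314 to 401) than in any other (at most 212). The part of this difference in the mTO-iTreg comparisons was not tested. Because RNA was measured in bulk, fewer cells of a type and less RNA per cell cannot be told apart either.

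Initiation begins when eIF2, carrying GTP and the initiator methionyl-tRNA, joins eIF1, eIF1A, eIF3 and eIF5 on the small ribosomal subunit. The eIF4F complex, made of the cap-binding protein eIF4E, the scaffold eIF4G and the helicase eIF4A, brings this assembly to the capped end of an mRNA. Scanning then finds the start codon, eIF5B joins the large subunit, and eEF1A and eEF2 drive elongation. T cells are known to raise protein synthesis steeply on activation, through mTOR, which releases eIF4E from its 4E-BP inhibitors, while stress kinases that phosphorylate eIF2 lower it. These are controls on proteins, and the measurements below are of mRNA only.

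The libraries held 2078223 to 9944952 counts, and a single count was worth 0.494 to 2.69 normalized counts. The 59 genes together took 1.89 to 1.97% of all counts on day 0, 2.38 to 2.59% in TGFβ-iTreg cells and 2.09 to 2.15% in mTO-iTreg cells. Their summed normalized counts, with the deposited scaling, were 110809 to 118076, 116705 to 127025 and 104523 to 110501 in that order. The mTO-iTreg libraries were thus above day 0 as a share of counts and below it with the deposited scaling. The reporter transcript eGFP was 26.3, 51.1 and 86.5 on day 0, 588, 674 and 695 in TGFβ-iTreg cells and 305, 462 and 262 in mTO-iTreg cells. Foxp3 itself had the opposite order in the cultured groups, at 8.77, 0 and 2.11, then 19.7, 14.9 and 14.8, then 69.6, 37.2 and 81.0. All 8 listed CD4 T cell markers in the table were read in every library, with sums of 28024 to 30271, 17365 to 18769 and 19334 to 23490 in the same order. Sums over 9 myeloid and antigen-presenting markers were 906 to 7710 on day 0 (highest in replicate 3), 208 to 482 in TGFβ-iTreg cells and 1833 to 2991 in mTO-iTreg cells. In mTO-iTreg cells H2-Eb1 made most of the sum (1410 to 2331). H2-Ab1 was 208 to 313 there, H2-Aa 32.5 to 190, Cd74 122 to 194 and Cd68 6.82 to 10.9. Itgam was 23.2, 0 and 0.664 and Tyrobp 4.09, 1.86 and 0, while Fcer1g was 0 in 2 of 3 libraries and Itgax 0 in all 3. Over 2 natural killer cell markers the sums were 199 to 504, 58.3 to 118 and 2.66 to 4.77, mostly from Klrd1, and over 4 B cell markers 10.5 to 57.0, 30.6 to 69.2 and 61.1 to 104. Sums over 7 epithelial markers were 13.7 to 18.8, 138 to 139 and 34.1 to 115. Epcam (5.26 to 18.8, 74.1 to 113 and 21.1 to 89.0) and Cdh1 (0 to 5.26, 25.1 to 52.9 and 9.31 to 20.6) made most of these, and Krt18 was at 0 in 2, 3 and 2 libraries. Mitochondrially encoded genes took 1.45 to 3.14%, 1.66 to 2.21% and 6.87 to 7.52% of counts. The part of these in the results below was not tested.

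Each library's log2(normalized count + 1) was fitted with limma across all tested genes, with Benjamini-Hochberg adjustment over all of them and a threshold of 0.05. Fold changes below are ratios of group means, while log2 changes ± SE are from the fit. Against day 0, 14 of the 58 genes changed in TGFβ-iTreg cells, where 18.6% of all genes did: 10 rose (9.78% of all genes did) and 4 fell (8.80%). In mTO-iTreg cells 27 of the 58 changed against day 0, beside 33.9% of all genes, with 17 higher (19.4%) and 10 lower (14.5%). Between the cultured groups 24 changed, beside 26.6% of all genes, with 11 higher in mTO-iTreg cells (14.9%) and 13 lower (11.8%). The median log2 change of the 58 was 0.15, 0.11 and 0.01 in this order, and that of all genes -0.02, 0.09 and 0.13. The median absolute log2 change was smaller than in all genes: 0.34 against 0.52, 0.42 against 0.71 and 0.44 against 0.63. The 3 and 3 libraries did not overlap for 30, 33 and 36 of the 58, beside 35.9%, 46.2% and 44.6% of all genes.

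The split between rises and falls depended on scaling. With every library set to the same total, the median change of all genes against day 0 went from -0.02 to 0.22 in TGFβ-iTreg cells and from 0.09 to 0.31 in mTO-iTreg cells. The 58 genes then split into 21 higher and 3 lower, and 23 higher and 6 lower (87.5% and 79.3% of calls upward, against 71.4% and 63.0%). Of all called genes, 75.4% and 70.4% were then higher, against 52.6% and 57.1%. Between the cultured groups the split of the 58 stayed at 11 higher and 13 lower with equal totals. It turned to 14 higher and 12 lower when totals were set without mitochondrial genes and Rn45s. Of all called genes, 53.7% and 60.9% were higher in these settings, against 55.8%. The 10 rises in TGFβ-iTreg cells became 6 without day 0 replicate 1, 5 without the shallowest library of each of day 0 and TGFβ-iTreg, and 5, with 2 falls, when limma's variance trend was left out.

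**Figure D1:**
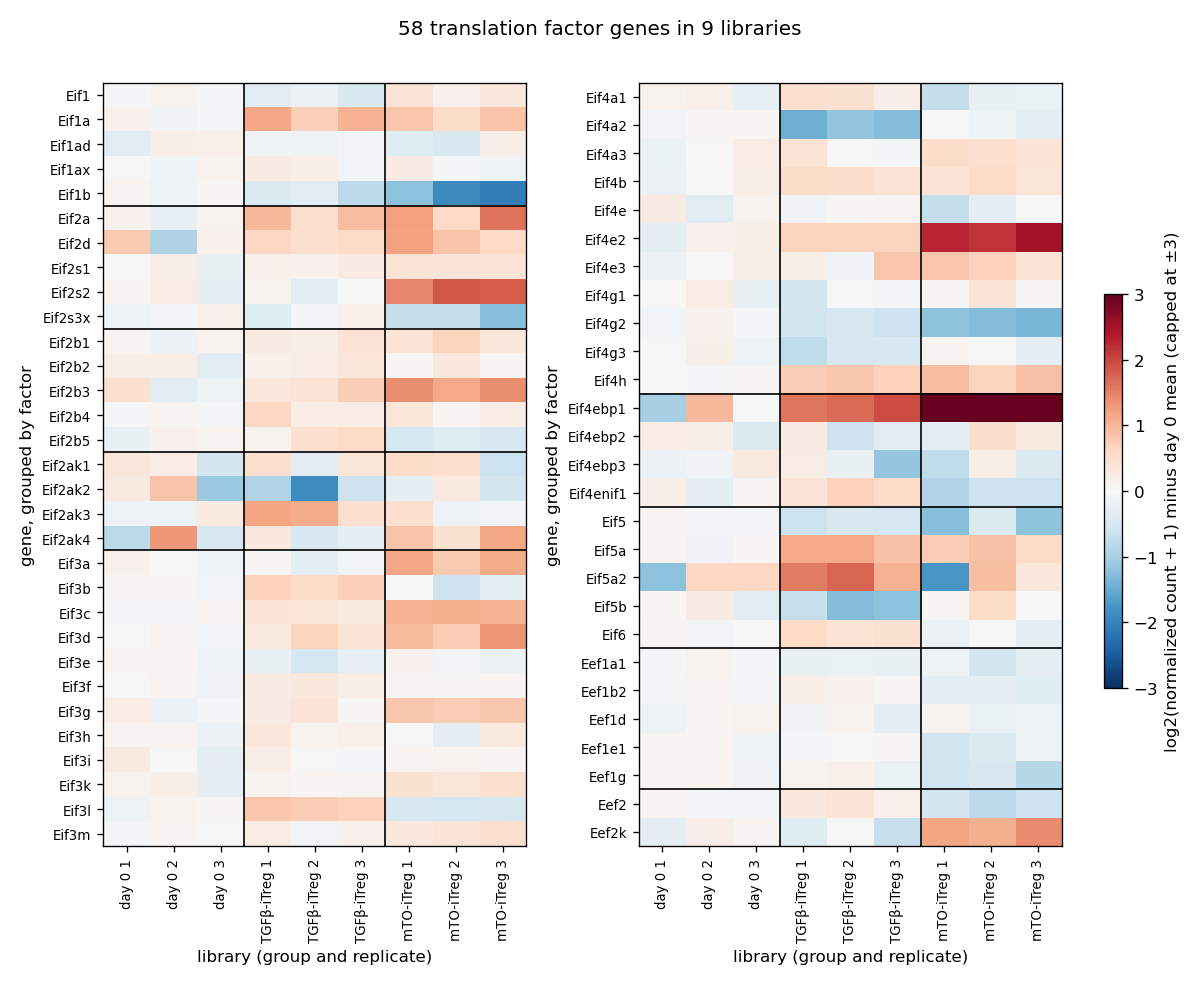
Columns are the 9 libraries and rows the 58 tested genes, grouped by factor and divided by horizontal lines (left, top to bottom: eIF1 and eIF1A, eIF2, eIF2B, eIF2 kinases, eIF3; right: eIF4, 4E-BPs and 4E-T, eIF5 to eIF6, eEF1, eEF2 and its kinase). Colour gives log2(normalized count + 1) minus the day 0 mean, so the 3 mTO-iTreg columns show Eif4ebp1, Eif4e2 and Eif2s2 high and Eif1b and Eif4g2 low.

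The largest called change of the 58 genes, in each of the 3 comparisons, was that of Eif4ebp1. Eif4ebp1 encodes 4E-BP1, which holds eIF4E away from eIF4G until mTOR phosphorylates it (chromosome 8, 27260329 to 27276674, GRCm38). Its normalized counts were 15.8, 64.5 and 32.7 on day 0, 101, 107 and 127 in TGFβ-iTreg cells and 569.5, 781 and 767 in mTO-iTreg cells. No library of one group reached the range of another, and the order was day 0, TGFβ-iTreg, mTO-iTreg. Eif4ebp1 rose 2.97-fold in TGFβ-iTreg cells (log2 change 1.75 ± 0.38, adjusted p = 0.0066) and 18.7-fold in mTO-iTreg cells (4.39 ± 0.38, adjusted p = 2.4e-06). It was 6.31-fold higher in mTO-iTreg than in TGFβ-iTreg cells (2.64 ± 0.38, adjusted p = 2.5e-04). The day 0 level rests on 64 counts over its 3 libraries: without day 0 replicate 2 the folds over day 0 were 4.61 and 29.1, without replicate 1 they were 2.30 and 14.5, and all 3 calls held in all 22 alternatives. The related inhibitor genes did not pass: Eif4ebp2 was 268 ± 61.2, 231 ± 71.2 and 303 ± 86.1 (mean ± SD, n = 3, in the order day 0, TGFβ-iTreg, mTO-iTreg), with overlapping libraries in all 3 comparisons. Eif4ebp3, which overlaps another gene model of near-identical 3′ end on its strand, was 87.4 ± 14.8, 71.3 ± 31.3 and 70.5 ± 24.2.

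A ratio of genes within a library does not depend on scaling, and only its shift between groups is read here, since the method counts 3′ ends and gene levels are not set against each other. Eif4ebp1 to Eif4ebp2 was 0.0517 to 0.214 on day 0, 0.325 to 0.625 in TGFβ-iTreg cells and 2.07 to 2.73 in mTO-iTreg cells. Eif4e encodes the cap-binding protein that both inhibitors hold, and it did not pass in any comparison (585 ± 120.5, 578 ± 42.1 and 465 ± 111). Eif4e to Eif4ebp1 was 7.0 to 43.4, then 4.81 to 5.51, then 0.611 to 0.743, so the 3 groups did not overlap in either ratio.

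Eif4e2 encodes 4EHP, a cap-binding protein known for repressing the mRNAs it holds because it does not join eIF4G (chromosome 1, 87213914 to 87240488). Its normalized counts were 265, 358 and 369 on day 0, 521, 520.2 and 523 in TGFβ-iTreg cells and 1599, 1469.6 and 1869 in mTO-iTreg cells. All 3 groups were apart, with the TGFβ-iTreg libraries nearly equal. It rose 1.58-fold in TGFβ-iTreg cells (log2 change 0.67 ± 0.16, adjusted p = 0.010) and 4.98-fold in mTO-iTreg cells (2.32 ± 0.16, adjusted p = 3.6e-07), and it was 3.16-fold higher in mTO-iTreg than in TGFβ-iTreg cells (1.65 ± 0.16, adjusted p = 9.2e-06). Without the variance trend the rise in TGFβ-iTreg cells did not pass (adjusted p = 0.062). The further family member Eif4e3 was 86.2 ± 10.8, 110.0 ± 37.8 and 135 ± 19.9 and did not pass. Eif4enif1 encodes 4E-T, which carries eIF4E to P-bodies and the nucleus. It was 226, 164 and 212 on day 0, 261, 323 and 295 in TGFβ-iTreg cells and 108, 128 and 129 in mTO-iTreg cells. Eif4enif1 was lower in mTO-iTreg than in TGFβ-iTreg cells (log2 change -1.26 ± 0.21, adjusted p = 6.5e-04) and than on day 0 (-0.71 ± 0.21, adjusted p = 0.018). The fall from day 0 was lost in 5 of 22 alternatives, among them leaving out day 0 replicate 1 or 3 or mTO-iTreg replicate 1 (adjusted p up to 0.16). The 3′ end of Eif4enif1 lies within 1000 bases of Drg1 on the other strand, and how strand was handled is not given.

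The helicase genes of eIF4F took opposite courses. Eif4a1 and Eif4a2 encode the near-interchangeable eIF4A1 and eIF4A2, of which eIF4A2 has also been tied to repression by microRNAs. Eif4a2 was 1351, 1476 and 1474 on day 0, 514, 625 and 581 in TGFβ-iTreg cells and 1413, 1316 and 1196 in mTO-iTreg cells. It was low in the 3 TGFβ-iTreg libraries alone, 2.50-fold below day 0 (log2 change -1.32 ± 0.13, adjusted p = 1.8e-05) and 2.28-fold below mTO-iTreg cells (1.19 ± 0.13 for mTO-iTreg minus TGFβ-iTreg, adjusted p = 2.2e-05). Between mTO-iTreg cells and day 0 it did not pass (-0.13 ± 0.13, adjusted p = 0.45). Eif4a1 was 1968, 2029 and 1538 on day 0, 2556, 2532 and 2114 in TGFβ-iTreg cells and 1114, 1557 and 1598 in mTO-iTreg cells. It was lower in mTO-iTreg than in TGFβ-iTreg cells (-0.77 ± 0.16, adjusted p = 0.0032) and did not pass against day 0 in either group, although its rise in TGFβ-iTreg cells passed with equal totals (0.63, adjusted p = 0.011) and its lower level in mTO-iTreg cells passed with TMM factors or without day 0 replicate 3 (adjusted p down to 0.035). Eif4a1 to Eif4a2 was 1.46, 1.38 and 1.04 on day 0, 4.97, 4.05 and 3.64 in TGFβ-iTreg cells and 0.789, 1.18 and 1.34 in mTO-iTreg cells, so the TGFβ-iTreg libraries stood apart and the others overlapped. The gene model Gm24029 lies within the last 1000 bases of Eif4a1 on the same strand, and Rfc4 lies there on the other strand of Eif4a2. Eif4a3, a helicase of the exon junction complex rather than of eIF4F, was 106 ± 16.2, 116 ± 21.2 and 148 ± 7.73 and did not pass.

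Among the scaffold genes, the one whose product does not bind eIF4E differed most in mTO-iTreg cells. Eif4g2 encodes DAP5, which lacks the eIF4E-binding part of eIF4G1 and serves cap-independent and alternative initiation. Its normalized counts were 5167, 5978 and 5235 on day 0, 3571, 3844 and 3558 in TGFβ-iTreg cells and 2373, 2205 and 2089 in mTO-iTreg cells. All 3 groups were apart, in falling order. Eif4g2 fell 1.49-fold in TGFβ-iTreg cells (log2 change -0.58 ± 0.11, adjusted p = 0.0022) and 2.46-fold in mTO-iTreg cells (-1.30 ± 0.11, adjusted p = 1.5e-06), and it was 1.65-fold lower in mTO-iTreg than in TGFβ-iTreg cells (-0.72 ± 0.11, adjusted p = 2.6e-04). Without the variance trend the fall in TGFβ-iTreg cells did not pass (adjusted p = 0.053). Eif4g1, the main scaffold, did not pass (390.0 ± 57.8, 339 ± 68.1 and 432 ± 61.3). Eif4g2 to Eif4g1 went from 13.3 to 15.7 on day 0 and 9.55 to 13.7 in TGFβ-iTreg cells to 4.39 to 5.95 in mTO-iTreg cells. Eif4g3, a further scaffold, was 322 ± 36.8, 215 ± 22.5 and 308 ± 37.1. Its fall in TGFβ-iTreg cells (-0.58 ± 0.18, adjusted p = 0.043) was lost in 13 of 22 alternatives (adjusted p up to 0.29), including leaving out any TGFβ-iTreg library, day 0 replicate 1 or 2, or mTO-iTreg replicate 1.

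The partners that stimulate eIF4A rose in both cultured groups against the same day 0 libraries. Eif4h was 1072, 1024 and 1099 on day 0, 1764, 1865 and 1727 in TGFβ-iTreg cells and 2019.5, 1697 and 1968 in mTO-iTreg cells. Both cultured groups lay wholly above day 0 and overlapped each other. Its log2 change was 0.74 ± 0.11 in TGFβ-iTreg cells (adjusted p = 6.3e-04) and 0.83 ± 0.11 in mTO-iTreg cells (adjusted p = 1.1e-04). Eif4b was 2401 ± 291, 3374 ± 167 and 3257 ± 272, with log2 changes of 0.50 ± 0.12 (adjusted p = 0.010) and 0.44 ± 0.12 (adjusted p = 0.010). Without day 0 replicate 1, which had the lowest Eif4b value, neither rise of Eif4b passed (adjusted p = 0.052 and 0.054), nor did either without the variance trend (adjusted p = 0.10 and 0.087).

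**Figure D2:**
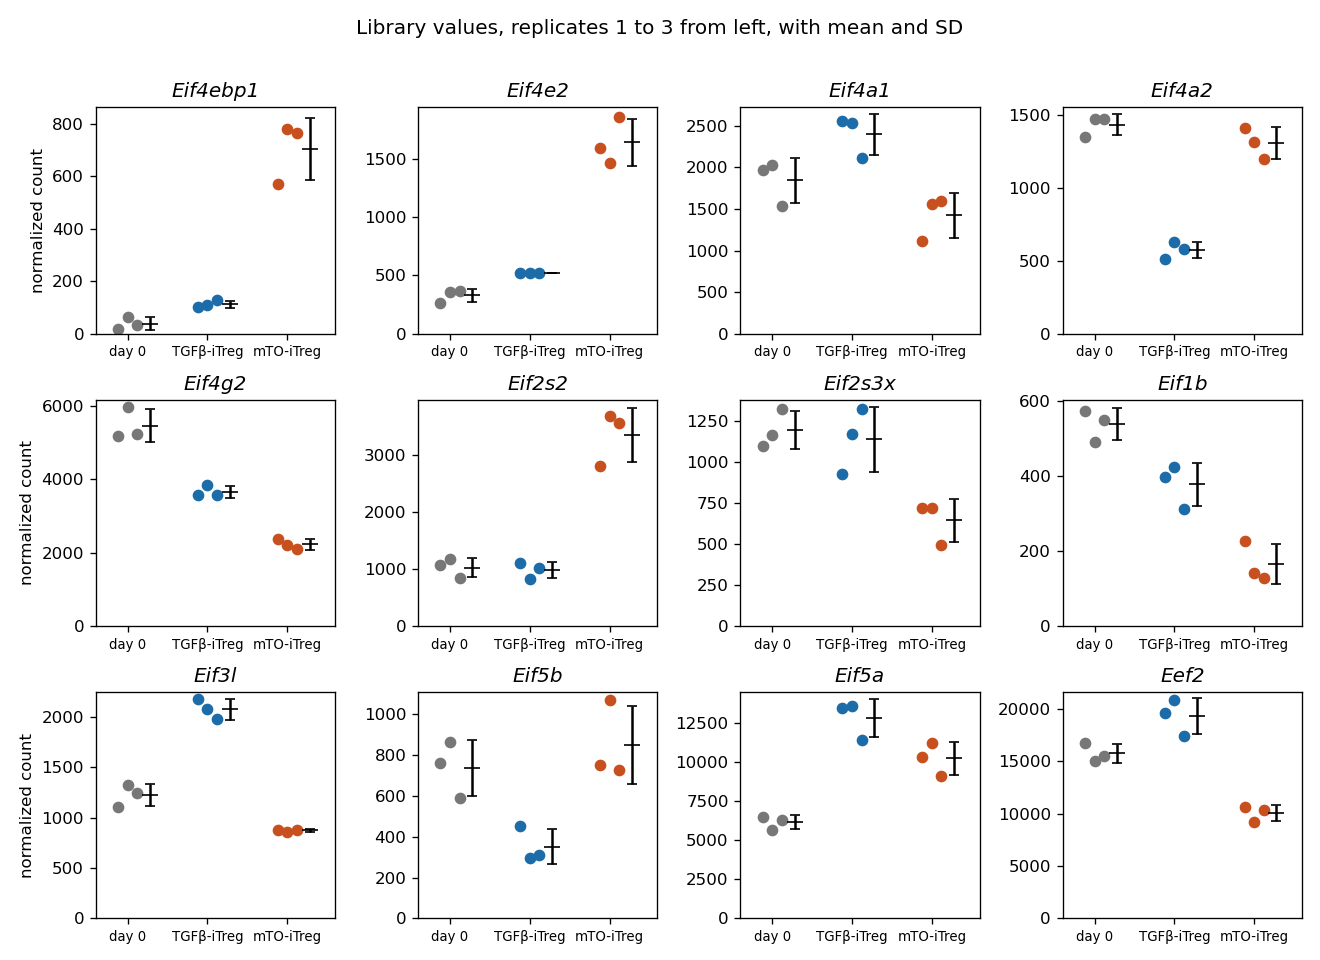
Each panel gives 1 gene, with points for the 3 libraries of each group in normalized counts on a linear axis from 0, and a mean ± SD beside them. Eif4ebp1, Eif4e2 and Eif2s2 are highest in mTO-iTreg cells, Eif4g2, Eif1b and Eef2 lowest there, and Eif4a2 and Eif5b lowest in TGFβ-iTreg cells.

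**Figure D3:**
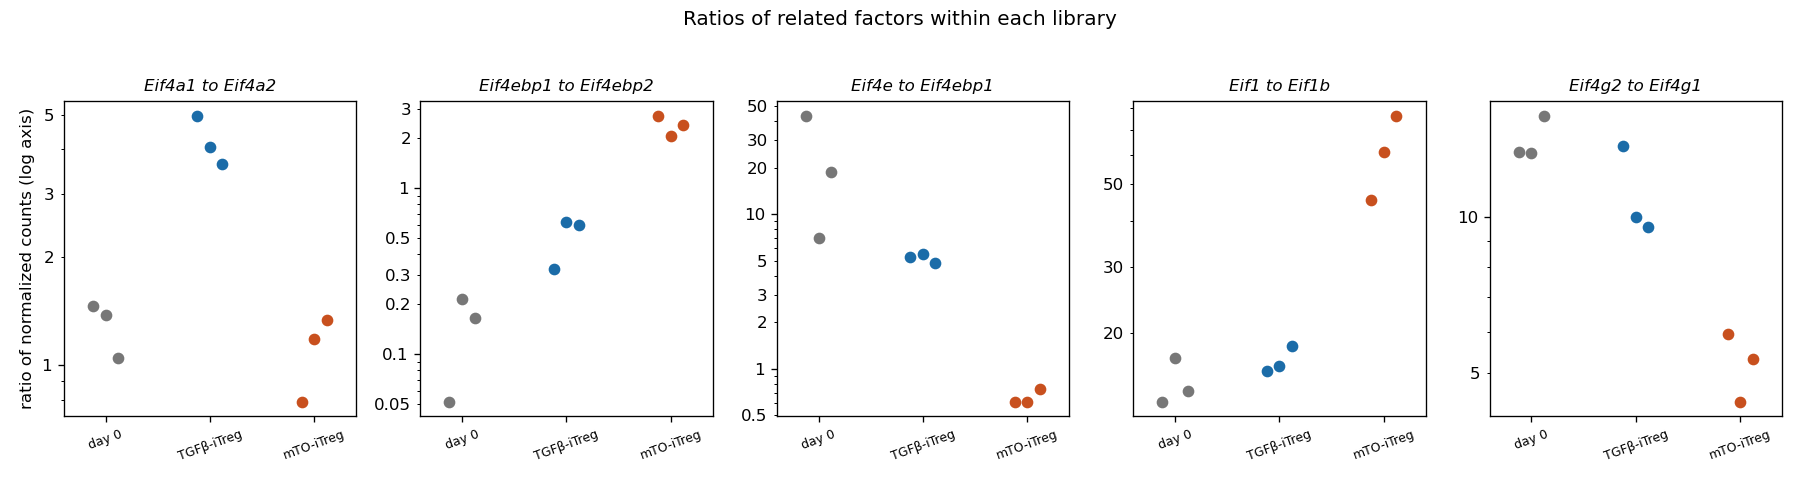
Each panel plots the ratio of the normalized counts of 2 related genes within each library, on a log axis, for the 3 libraries of each group. Eif4a1 to Eif4a2 is 3.64 or more in the TGFβ-iTreg libraries and at most 1.46 in the others, and Eif1 to Eif1b is 45.6 or more in the mTO-iTreg libraries and at most 18.5 in the others.

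The subunits of eIF2, the carrier of initiator tRNA, moved in different directions in mTO-iTreg cells. Eif2s2 encodes the β subunit, which binds eIF5 and eIF2B. Its normalized counts were 1065, 1177 and 836 on day 0, 1099, 819.9 and 1019 in TGFβ-iTreg cells and 2815, 3686 and 3565 in mTO-iTreg cells. The mTO-iTreg libraries lay far above the other 6, which overlapped. Eif2s2 was 3.27-fold higher in mTO-iTreg cells than on day 0 (log2 change 1.71 ± 0.16, adjusted p = 4.8e-06) and 3.43-fold higher than in TGFβ-iTreg cells (1.78 ± 0.16, adjusted p = 6.6e-06). Its 3′ end shares a window of 1000 bases with the agouti gene a on the other strand. The α subunit gene Eif2s1, whose product is the target of the stress kinases, was 670.2, 769 and 572 on day 0, 740.3, 724 and 784 in TGFβ-iTreg cells and 896, 868 and 877 in mTO-iTreg cells. It passed against day 0 in mTO-iTreg cells (0.40 ± 0.14, adjusted p = 0.036), a call lost in 9 of 22 alternatives (adjusted p up to 0.14), including leaving out day 0 replicate 1 or 3 or any mTO-iTreg library.

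Eif2s3x, on the X chromosome (94188707 to 94212862), encodes the γ subunit, which binds GTP and the tRNA. Its values were 1098, 1164 and 1323 on day 0, 927, 1171 and 1321 in TGFβ-iTreg cells and 720.2, 722 and 495 in mTO-iTreg cells. Here the mTO-iTreg libraries lay below all others. Eif2s3x was 1.85-fold lower than on day 0 (log2 change -0.90 ± 0.18, adjusted p = 0.0014) and 1.77-fold lower than in TGFβ-iTreg cells (-0.83 ± 0.18, adjusted p = 0.0036). Markers of sex differed between libraries at the same time. Xist, the RNA that silences one X chromosome in females, was 3.51, 0 and 212 on day 0, 0, 2.71 and 70.6 in TGFβ-iTreg cells and 314, 398 and 401 in mTO-iTreg cells. Uba1y, a Y-linked gene, was 14.0, 13.4 and 3.16, then 2.46, 3.39 and 3.95, then 0, 1.24 and 0. These Uba1y values rest on few counts, since a single count was worth 0.494 to 2.69 normalized counts. Erdr1, the other row placed on the Y chromosome, is not read as a marker of sex here. It was 509, 1637 and 650, then 413, 994 and 412, then 960, 1374 and 624. Within day 0 and within TGFβ-iTreg cells, replicate 3 had both the most Xist and the most Eif2s3x, a single library in each group. How sex markers and Eif2s3x are related in these libraries was not tested.

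Genes for other routes of tRNA delivery rose or did not pass. Eif2a encodes eIF2A, a single protein unrelated to eIF2α that can deliver initiator tRNA without GTP. It was 377, 293 and 372 on day 0, 684, 484 and 658 in TGFβ-iTreg cells and 815, 523 and 1077 in mTO-iTreg cells. It rose in mTO-iTreg cells (log2 change 1.16 ± 0.23, adjusted p = 0.0019) and in TGFβ-iTreg cells (0.80 ± 0.23, adjusted p = 0.031), where the call was lost in 7 of 22 alternatives (adjusted p up to 0.24), including leaving out day 0 replicate 1 or 2 or TGFβ-iTreg replicate 1 or 3. Eif2d was spread widely on day 0 (115 ± 62.7, then 152 ± 5.51 and 194 ± 40.7) and did not pass.

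The exchange factor eIF2B recharges eIF2 with GTP and is the step that phosphorylated eIF2α blocks. Among its 5 subunit genes none changed in TGFβ-iTreg cells, although all 5 changes were positive (log2 0.25 to 0.49). The catalytic subunit gene Eif2b5 was 125, 161 and 156 on day 0, 157, 207 and 217 in TGFβ-iTreg cells and 102, 113 and 102 in mTO-iTreg cells. The mTO-iTreg libraries lay below all others, and Eif2b5 was lower than in TGFβ-iTreg cells (-0.86 ± 0.23, adjusted p = 0.014), a call that ended without TGFβ-iTreg replicate 2 or 3 (adjusted p up to 0.063). Eif2b3, a further subunit of the catalytic part, went the other way at low values (38.6, 21.5 and 24.3 on day 0, 34.4, 36.6 and 45.9 in TGFβ-iTreg cells and 73.0, 61.4 and 73.7 in mTO-iTreg cells). It was higher in mTO-iTreg cells than on day 0 (1.31 ± 0.39, adjusted p = 0.019), which ended without day 0 replicate 2 or mTO-iTreg replicate 1 or 3 (adjusted p up to 0.060). Eif2b1 (142 ± 14.0, 175 ± 15.7 and 199 ± 22.9), Eif2b2 (98.3 ± 19.4, 116 ± 8.80 and 107 ± 11.8) and Eif2b4 (132 ± 7.18, 169.9 ± 27.5 and 154 ± 15.7) passed in no comparison.

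None of the 4 genes for eIF2 kinases passed in any comparison, and their spread was wide. Eif2ak1 encodes HRI, which senses haem and mitochondrial stress, and was 306 ± 92.6, 346 ± 97.2 and 346 ± 137. Eif2ak4 encodes GCN2, the sensor of uncharged tRNA, and was 32.2 ± 28.1, 23.7 ± 7.29 and 46.7 ± 11.2. Eif2ak3 encodes PERK, the sensor of the endoplasmic reticulum. Its libraries gave 40.4, 40.3 and 54.9 on day 0, 103, 97.7 and 62.2 in TGFβ-iTreg cells and 63.4, 40.3 and 42.5 in mTO-iTreg cells, higher in all 3 TGFβ-iTreg libraries than on day 0 with log2 change 0.92 ± 0.36 and adjusted p = 0.096. The libraries for Eif2ak2, the double-stranded RNA sensor PKR, gave 73.7, 110.2 and 27.4 on day 0, 32.0, 15.6 and 39.0 in TGFβ-iTreg cells and 49.8, 73.2 and 41.2 in mTO-iTreg cells. With equal totals the rise of Eif2ak3 passed (adjusted p down to 0.035). The lack of a call does not show equal levels: the SE of these log2 changes was 0.33 for Eif2ak1, 0.36 for Eif2ak3, 0.53 for Eif2ak2 and 0.57 for Eif2ak4.

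Start codon choice rests on eIF1 and eIF1A. Eif1 and Eif1b encode 2 forms of eIF1, the factor that keeps scanning strict. Eif1b was 574, 492 and 552 on day 0, 398, 424 and 312 in TGFβ-iTreg cells and 228, 141 and 128 in mTO-iTreg cells. The mTO-iTreg libraries were all below the rest, 3.26-fold under day 0 (log2 change -1.74 ± 0.22, adjusted p = 5.3e-05) and 2.28-fold under TGFβ-iTreg cells (-1.22 ± 0.22, adjusted p = 0.0013). Eif1 moved the other way between the cultured groups. It was 7523, 8441 and 7718 on day 0, 6319, 6943 and 5785 in TGFβ-iTreg cells and 10383, 8658 and 9750.1 in mTO-iTreg cells, highest in the mTO-iTreg libraries, and passed against TGFβ-iTreg cells (0.60 ± 0.11, adjusted p = 0.0014) but not against day 0 (0.28 ± 0.11, adjusted p = 0.064). The difference of Eif1 from day 0 passed in 5 of 22 alternatives, among them equal totals, quantile normalization and limma-voom (log2 change up to 0.58, adjusted p down to 6.4e-04). Eif1 to Eif1b was 13.1 to 17.2 on day 0, 15.9 to 18.5 in TGFβ-iTreg cells and 45.6 to 76.4 in mTO-iTreg cells. Of the eIF1A genes, Eif1a was 144, 124 and 129.8 on day 0, 298, 218 and 274 in TGFβ-iTreg cells and 237, 195 and 238 in mTO-iTreg cells, above day 0 in every cultured library. It rose by 0.98 ± 0.20 on the log2 scale in TGFβ-iTreg cells (adjusted p = 0.0050) and by 0.75 ± 0.20 in mTO-iTreg cells (adjusted p = 0.012). The first of these did not pass when the shallowest day 0 and TGFβ-iTreg libraries were left out together (adjusted p = 0.056). The X-linked Eif1ax (504 ± 44.6, 549 ± 67.2 and 515 ± 72.5) and Eif1ad (288 ± 56.8, 262 ± 6.87 and 248 ± 62.4) did not pass.

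The subunits of eIF3, the large complex that holds the small ribosomal subunit open to mRNA, did not move as a unit. Of 12 tested subunit genes, 6 rose and 1 fell in mTO-iTreg cells against day 0, and 2 rose and none fell in TGFβ-iTreg cells, where 19.4% and 14.5%, and 9.78% and 8.80%, of all genes did. With equal totals these counts became 7 and 0 in mTO-iTreg cells and 7 and 0 in TGFβ-iTreg cells. Of all 10983 tested genes, 2732 then rose and 1148 fell in mTO-iTreg cells, and 1791 rose and 584 fell in TGFβ-iTreg cells. Between the cultured groups 4 subunit genes were higher and 2 lower in mTO-iTreg cells, with either scaling, beside 14.9% and 11.8% of all genes. The rises in mTO-iTreg cells were led by 3 genes near 2-fold. Eif3c, whose product joins the complex to eIF1 and eIF5, was 328, 331 and 354 on day 0, 448, 431 and 407 in TGFβ-iTreg cells and 699, 708 and 699 in mTO-iTreg cells, with the mTO-iTreg libraries far above the others (log2 change 1.05 ± 0.14 against day 0, adjusted p = 6.8e-05, and 0.71 ± 0.14 against TGFβ-iTreg cells, adjusted p = 0.0020). Eif3a, the scaffold of the complex, was 502, 465 and 419 on day 0, 472, 378 and 435 in TGFβ-iTreg cells and 1024, 789 and 998 in mTO-iTreg cells, again high in mTO-iTreg cells alone (1.01 ± 0.16, adjusted p = 2.7e-04, and 1.12 ± 0.16, adjusted p = 1.8e-04). Eif3d, whose product can bind the cap of particular mRNAs, was 354, 382 and 341 on day 0, 440.3, 574 and 474 in TGFβ-iTreg cells and 697, 604 and 902 in mTO-iTreg cells. All 3 groups of Eif3d libraries were apart. It passed against day 0 (1.01 ± 0.17, adjusted p = 5.7e-04) and against TGFβ-iTreg cells (0.55 ± 0.17, adjusted p = 0.031), the second lost in 7 of 22 alternatives, including leaving out replicate 1 or 3 of either cultured group (adjusted p up to 0.13).

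Eif3l, a subunit of the outer part of eIF3, was the one gene of the 58 to pass against day 0 in opposite directions. Its values were 1109, 1323 and 1246 on day 0, 2184, 2079 and 1977 in TGFβ-iTreg cells and 883, 855 and 883 in mTO-iTreg cells. The TGFβ-iTreg libraries were above and the mTO-iTreg libraries below all day 0 libraries. Eif3l rose by 0.77 ± 0.12 on the log2 scale in TGFβ-iTreg cells (adjusted p = 5.8e-04) and was 2.38-fold lower in mTO-iTreg than in TGFβ-iTreg cells (-1.25 ± 0.12, adjusted p = 7.2e-06). Its fall in mTO-iTreg cells (-0.48 ± 0.12, adjusted p = 0.0057) did not pass with equal totals, with or without mitochondrial genes, or without the variance trend (adjusted p up to 0.24). Eif3b, a core subunit, was 296, 296 and 271 on day 0, 462, 425 and 471 in TGFβ-iTreg cells and 288, 185 and 238 in mTO-iTreg cells. It too was highest in TGFβ-iTreg cells, above day 0 (0.65 ± 0.19, adjusted p = 0.026) and above mTO-iTreg cells (-0.95 ± 0.19 for mTO-iTreg minus TGFβ-iTreg, adjusted p = 0.0021). The first of these did not pass when any day 0 or TGFβ-iTreg library was left out (adjusted p up to 0.11), and the second held in all 22 alternatives.

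Further eIF3 genes passed with smaller changes in mTO-iTreg cells. Eif3g, an RNA-binding subunit, was 544 ± 75.8, 638 ± 76.8 and 932 ± 17.0, higher than on day 0 (0.79 ± 0.15, adjusted p = 0.0011) and than in TGFβ-iTreg cells (0.55 ± 0.15, adjusted p = 0.014, lost without TGFβ-iTreg replicate 3 or the variance trend, adjusted p up to 0.064). Eif3k was 648 ± 104, 675 ± 14.5 and 868 ± 39.8, and Eif3m 1044 ± 47.9, 1114 ± 123 and 1391 ± 91.3. Both passed against day 0 (0.43 ± 0.14, adjusted p = 0.033, and 0.41 ± 0.13, adjusted p = 0.021). Leaving out day 0 replicate 3 or mTO-iTreg replicate 3 ended either call, as did mTO-iTreg replicate 1 for Eif3k and day 0 replicate 1 for Eif3m (adjusted p up to 0.14 and 0.097 over all alternatives). Eif3e, Eif3f, Eif3h and Eif3i passed in no comparison, with log2 changes from -0.33 to 0.28. Reads of Eif3e, Eif3h and Eif3m may be shared with pseudogenes whose 3′ ends are at least 95% identical, and Eif3m faces Ccdc73 on the other strand.

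**Figure D4:**
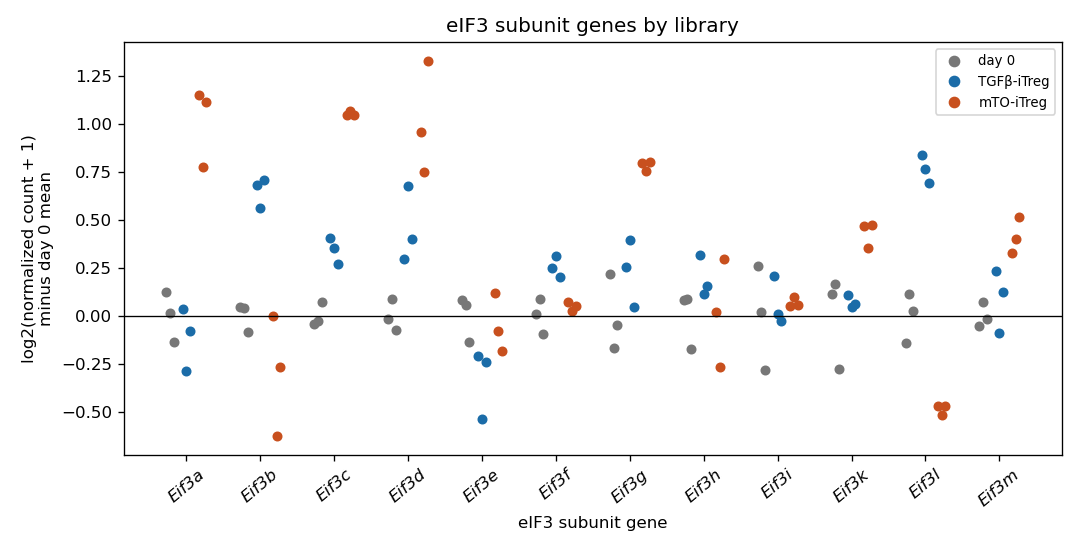
Points are libraries, 3 per group, for the 12 tested eIF3 subunit genes on the horizontal axis, and the vertical axis gives log2(normalized count + 1) minus the day 0 mean of the gene. Eif3a, Eif3c, Eif3d and Eif3g lie highest in mTO-iTreg cells, while Eif3l and Eif3b lie highest in TGFβ-iTreg cells.

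Genes of subunit joining and the steps around it differed between the cultured groups in both directions. Eif5b encodes the GTPase that joins the large ribosomal subunit. It was 761, 863 and 589.7 on day 0, 450.1, 294 and 309 in TGFβ-iTreg cells and 753, 1069 and 727 in mTO-iTreg cells. The TGFβ-iTreg libraries were below all others, 2.10-fold under day 0 (log2 change -1.08 ± 0.21, adjusted p = 0.0031), and mTO-iTreg cells were 2.42-fold above them (1.28 ± 0.21, adjusted p = 6.1e-04). Against day 0, Eif5b in mTO-iTreg cells gave 0.20 ± 0.21 (adjusted p = 0.50), and Rev1 lies at its 3′ end on the other strand. Eif5 encodes the factor that makes eIF2 hydrolyse its GTP at the start codon. It was 1851, 1718 and 1678 on day 0, 1126, 1253 and 1242 in TGFβ-iTreg cells and 726, 1303 and 753 in mTO-iTreg cells, lower in both cultured groups than on day 0 in every library. The fall passed in mTO-iTreg cells (-0.97 ± 0.19, adjusted p = 0.0013) and not in TGFβ-iTreg cells (-0.53 ± 0.19, adjusted p = 0.062), where it passed with 2 groups only or without mTO-iTreg replicate 2, the library highest in Eif5 of its group (adjusted p down to 0.0071). Eif6, which keeps free large subunits from joining, was 354, 312 and 331 on day 0, 502, 441 and 458 in TGFβ-iTreg cells and 296, 328 and 269.7 in mTO-iTreg cells, highest in TGFβ-iTreg cells. It was lower in mTO-iTreg than in TGFβ-iTreg cells (-0.65 ± 0.16, adjusted p = 0.0083). Its rise over day 0 in TGFβ-iTreg cells (0.49 ± 0.16, adjusted p = 0.046) was lost in 13 of 22 alternatives, including leaving out any day 0 or TGFβ-iTreg library or mTO-iTreg replicate 1 (adjusted p up to 0.26).

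Eif5a encodes the hypusine-bearing factor that eases peptide bond formation at prolines and at termination. It was 6495, 5672 and 6281 on day 0, 13474, 13571 and 11373 in TGFβ-iTreg cells and 10334, 11231 and 9107 in mTO-iTreg cells. Every cultured library was above day 0, by 2.08-fold on average in TGFβ-iTreg cells (log2 change 1.06 ± 0.11, adjusted p = 4.2e-05) and 1.66-fold in mTO-iTreg cells (0.73 ± 0.11, adjusted p = 2.8e-04). The lower level in mTO-iTreg than in TGFβ-iTreg cells (-0.33 ± 0.11, adjusted p = 0.0496) was at the threshold and was lost in 12 of 22 alternatives (adjusted p up to 0.21), including leaving out replicate 1 or 3 of day 0 or mTO-iTreg cells or replicate 1 or 2 of TGFβ-iTreg cells. Its paralog Eif5a2 was read unevenly (31.6, 116 and 116 on day 0, 221, 254 and 156 in TGFβ-iTreg cells and 21.8, 142 and 95.7 in mTO-iTreg cells) and did not pass. The hypusine enzyme genes Dhps and Dohh did not pass either.

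**Figure D5:**
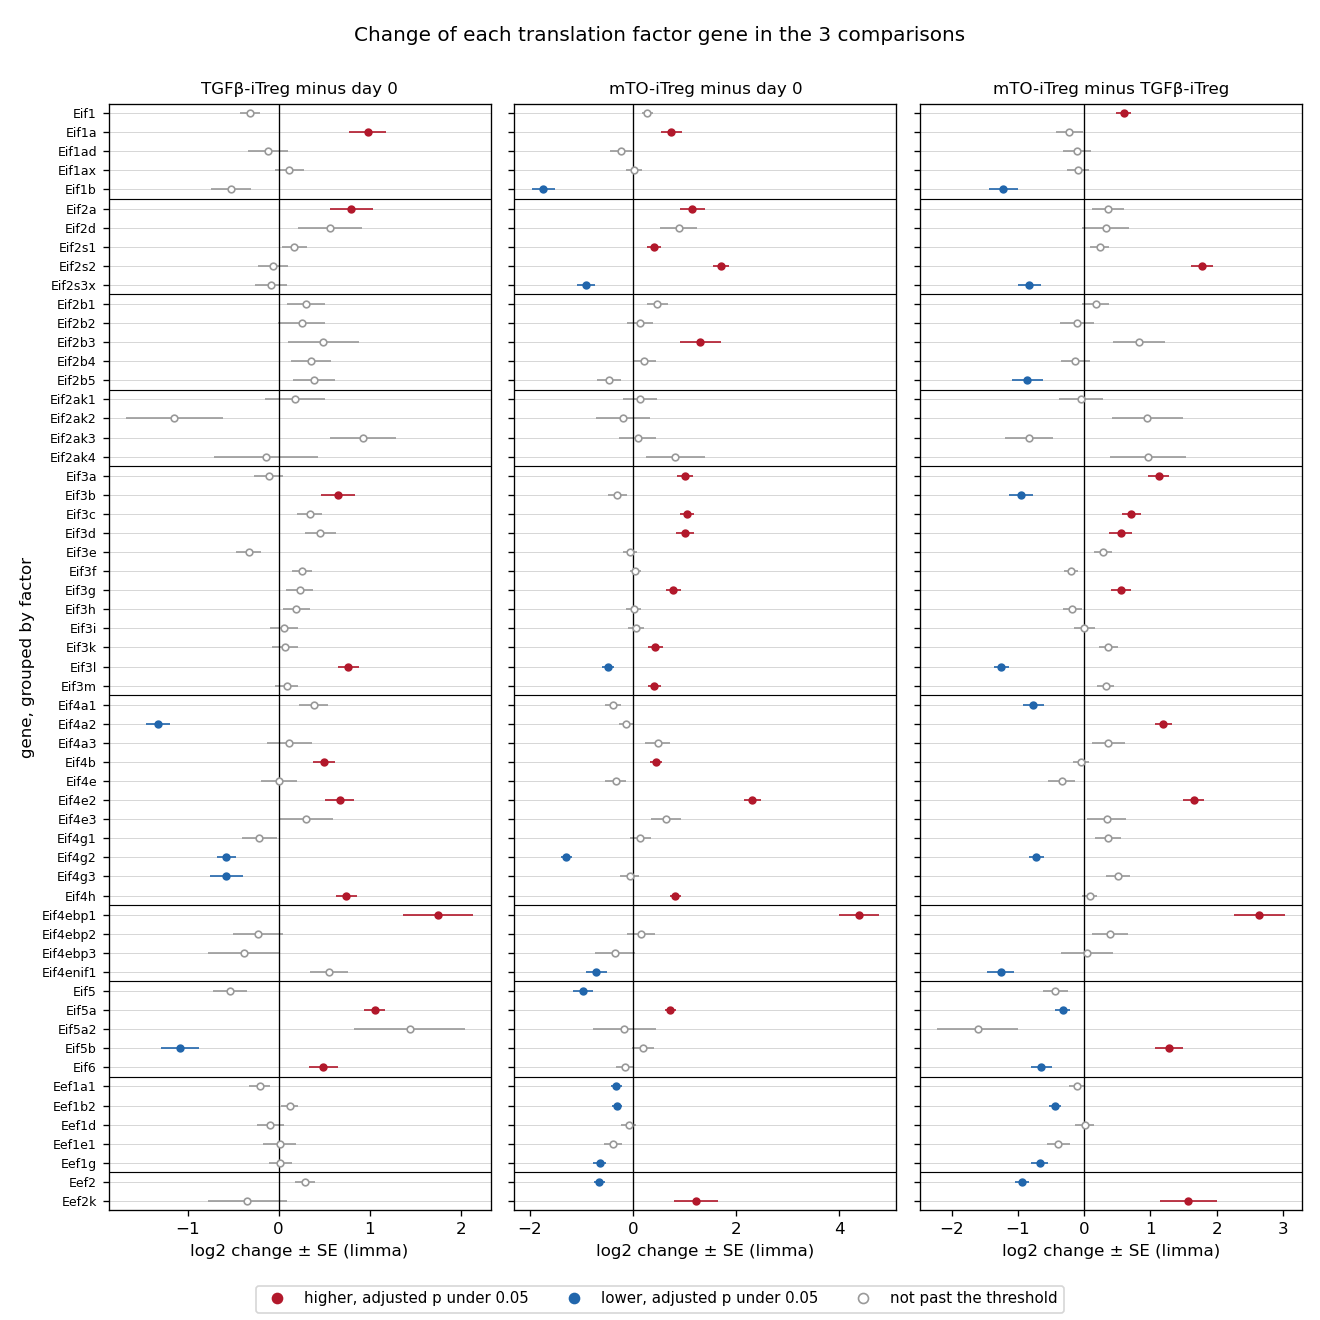
For each of the 58 tested genes, in the order of the factor groups, points give the log2 change and bars its SE from limma in the 3 comparisons, with a separate linear axis for each. Filled red points are higher and filled blue points lower at an adjusted p under 0.05, and open points did not pass. Red and blue points number 10 and 4 in the first panel, 17 and 10 in the second and 11 and 13 in the third. With equal totals the first 2 panels would hold 21 and 3, and 23 and 6. Of all called genes, 75.4% and 70.4% would then be higher, against 52.6% and 57.1%.

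Of the 7 elongation genes, 4 fell and 1 rose in mTO-iTreg cells against day 0, and none changed in TGFβ-iTreg cells. Of all genes, 14.5% fell and 19.4% rose in the first comparison, and 18.6% changed in the second. With equal totals these counts became 2 and 1 in mTO-iTreg cells and 0 and 2 in TGFβ-iTreg cells. Of all 10983 tested genes, 1148 then fell and 2732 rose in mTO-iTreg cells, and 584 fell and 1791 rose in TGFβ-iTreg cells. Eef2 encodes the GTPase that moves the ribosome along the mRNA. It was 16788, 15018 and 15490.3 on day 0, 19625, 20837 and 17433 in TGFβ-iTreg cells and 10613, 9193 and 10315 in mTO-iTreg cells. The mTO-iTreg libraries lay below and the TGFβ-iTreg libraries above all day 0 libraries. Eef2 was 1.57-fold lower in mTO-iTreg cells than on day 0 (log2 change -0.65 ± 0.11, adjusted p = 3.6e-04) and 1.92-fold lower than in TGFβ-iTreg cells (-0.94 ± 0.11, adjusted p = 3.1e-05). In TGFβ-iTreg cells against day 0 it did not pass (0.29 ± 0.11, adjusted p = 0.073), but it did in 4 of 22 alternatives, among them equal totals and quantile normalization (log2 change up to 0.54, adjusted p down to 0.0020). Eef2k encodes the kinase that inactivates eEF2, and it was read rarely (21.1, 29.6 and 26.4 on day 0, 19.7, 25.8 and 15.3 in TGFβ-iTreg cells and 59.3, 54.6 and 69.1 in mTO-iTreg cells). All mTO-iTreg libraries were above the other 6, and it passed against TGFβ-iTreg cells (1.57 ± 0.43, adjusted p = 0.016) and day 0 (1.22 ± 0.43, adjusted p = 0.041). These calls ended without replicate 3 of either cultured group in the first case (adjusted p up to 0.061), and in 10 of 22 alternatives in the second (adjusted p up to 0.12), including leaving out any mTO-iTreg library, day 0 replicate 1 or 3, or TGFβ-iTreg replicate 2.

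Of the eEF1 genes, Eef1g, part of the exchange complex that recharges eEF1A, was 4349, 4368 and 3952 on day 0, 4516, 4708 and 3682 in TGFβ-iTreg cells and 2800.5, 3009 and 2318 in mTO-iTreg cells. The mTO-iTreg libraries were all below the others (log2 change -0.65 ± 0.13 against day 0, adjusted p = 0.0016, and -0.67 ± 0.13 against TGFβ-iTreg cells, adjusted p = 0.0019). Eef1b2, another part of that complex, was 23467, 25356 and 23418 on day 0, 27584, 26359 and 24804 in TGFβ-iTreg cells and 19916, 19486 and 18732 in mTO-iTreg cells. It was lower in mTO-iTreg than in TGFβ-iTreg cells (-0.44 ± 0.09, adjusted p = 0.0038, and 0.076 without the variance trend), and its fall from day 0 (-0.31 ± 0.09, adjusted p = 0.019) came to -0.09 with equal totals (adjusted p = 0.44) and -0.0017 with quantile normalization (adjusted p = 0.99), and it also ended without the variance trend, without the shallowest day 0 and TGFβ-iTreg libraries, and without day 0 replicate 2 or mTO-iTreg replicate 3. Eef1a1, which brings aminoacyl-tRNA to the ribosome, was 19341, 21988 and 19653 on day 0, 17505, 17699 and 17501 in TGFβ-iTreg cells and 18216, 13910.5 and 16928 in mTO-iTreg cells. Its fall in mTO-iTreg cells (-0.32 ± 0.11, adjusted p = 0.040) was lost in 15 of 22 alternatives and came to -0.10 with equal totals (adjusted p = 0.48) and -0.0072 with quantile normalization (adjusted p = 0.96). Leaving out any day 0 library, TGFβ-iTreg replicate 1 or 2, or mTO-iTreg replicate 2 or 3 ended it. With equal totals 1 of the 5 eEF1 genes, in place of 3, fell against day 0. Eef1d (1049.8 ± 97.3, 989 ± 126 and 995 ± 121) and Eef1e1, a part of the tRNA synthetase complex (309 ± 24.0, 311 ± 8.07 and 239 ± 39.4), passed in no comparison.

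Many elongation factor mRNAs are known for a 5′ terminal oligopyrimidine (TOP) tract, a C followed by pyrimidines at the first bases, through which mTOR and the protein Larp1 control their translation. Of 9 members listed as TOP mRNAs from textbooks, 4 fell (Eef1a1, Eef1b2, Eef1g and Eef2) and 1 rose (Eif4b) in mTO-iTreg cells against day 0. In TGFβ-iTreg cells 1 rose (Eif4b) and none fell, and between the cultured groups 3 were lower in mTO-iTreg cells and none higher. Of all genes, 14.5% were lower and 19.4% higher in the first comparison, 9.78% rose in the second, and 11.8% were lower in the third. Their median log2 changes were -0.08, 0.12 and -0.18, beside 0.09, -0.02 and 0.13 for all genes. With equal totals, 2 of the 4 falls against day 0 did not pass (Eef1a1 and Eef1b2). RefSeq promoter windows (GRCm38.p6, 250 bases before to 50 after the start) were matched for 46 of the 59 members. A C within 5 bases of the start followed by at least 4 pyrimidines on the sense strand was found in 13 of the 46 (28.3%), in 21.2% of all 27025 genes with a window and in 23.5% of the table's genes with one. Of the 9 listed TOP members 5 had a window, and 2 of these had such a start; Eef1b2, Eef2 and Eif4b did not, with runs of 2, 1 and 2 at the annotated start. Runs of at least 8 were found in 6 members (13.0%) and 5.17% of all genes. Those 6 are printed because the TOP tract is read from the first bases of the mRNA; each shows 10 bases before and 20 from the annotated start, 5′ to 3′, with the run in capitals.
Eef1a1, chr9:78481705-78481734, minus strand: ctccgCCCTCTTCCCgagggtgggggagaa
Eif3f, chr7:108934405-108934434, plus strand: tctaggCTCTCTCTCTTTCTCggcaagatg
Eif3l, chr15:79075213-79075242, plus strand: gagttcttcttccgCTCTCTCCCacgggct
Eif2s3x, chrX:94212632-94212661, minus strand: gagcattttCCTTTTCTCTCCgagcaagat
Eif2b5, chr16:20498807-20498836, plus strand: ctctttCTCTCCCTgcaactacaccttcgc
Eif2b2, chr12:85219471-85219500, plus strand: ccgagcggaagttgaCCTCTCTCggcccgg
Among these 6, mTO-iTreg cells had less Eef1a1, Eif3l and Eif2s3x than day 0 cells had and less Eif3l, Eif2s3x and Eif2b5 than TGFβ-iTreg cells had, while Eif3f and Eif2b2 passed in no comparison.

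A second short sequence is given because members that rose and members that fell both hold it. The E-box CACGTG, the same on both strands and bound by Myc and related factors, was present in the window of 12 of 46 members (26.1%), of 8.09% of all genes with a window and of 11.3% of the table's genes with one. The windows printed, 30 bases with the E-box in capitals and written on the strand of the gene, belong to members whose values are given above.
Eif4h, chr5:134639488-134639517, minus strand: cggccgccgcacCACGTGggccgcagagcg
Eif5a, chr11:69921443-69921472, minus strand: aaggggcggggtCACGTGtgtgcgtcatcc
Eif4g1, chr16:20672661-20672690, plus strand: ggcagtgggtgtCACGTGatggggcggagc
Eif4e, chr3:138527192-138527221, plus strand: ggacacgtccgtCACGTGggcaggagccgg
Eif1b, chr9:120492570-120492599, plus strand: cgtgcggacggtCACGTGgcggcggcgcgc
Eef2, chr10:81176576-81176605, plus strand: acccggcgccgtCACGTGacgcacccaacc
Of these, Eif4h and Eif5a were higher in mTO-iTreg cells than on day 0, Eif1b and Eef2 lower, and Eif4g1 and Eif4e passed in no comparison. Of the other members with an E-box, Eef2k, Eif3a and Eif3k were higher in mTO-iTreg cells than on day 0. Eif3f, Eif4a1 and Eif5a2 did not pass in that comparison, in which 19.4% of all genes were higher and 14.5% lower. A match describes letters in a window, not binding. The motif TGATGNAA, an element that Atf4 binds, was found on either strand in the windows of 2 of 46 members (4.35%, Eef2k and Eif2s3x). It was found in 4.51% of all genes with a window and in 3.04% of the table's genes with one. Eif4ebp1 and Eif4g2 were among the members without a window, so neither motif was looked for in them.

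A fixed list of other translation genes was read beside the factors. Of 59 tested, 2 rose and 4 fell in TGFβ-iTreg cells against day 0, 7 rose and 10 fell in mTO-iTreg cells, and 7 were higher and 9 lower in mTO-iTreg than in TGFβ-iTreg cells. Of all genes, 9.78% rose and 8.80% fell in the first comparison, 19.4% and 14.5% in the second, and 14.9% were higher and 11.8% lower in the third. The largest called change in each comparison was that of a gene in the response to eIF2 phosphorylation. Atf4 encodes the transcription factor made when eIF2 is limiting. It was 542, 782 and 732 on day 0, 421, 424 and 486 in TGFβ-iTreg cells and 1337, 1476 and 1698 in mTO-iTreg cells, all mTO-iTreg libraries above the rest (1.14 ± 0.16 against day 0, adjusted p = 1.3e-04; 1.76 ± 0.16 against TGFβ-iTreg cells, adjusted p = 6.9e-06). Ddit3, which encodes the stress factor CHOP, was 84.2, 99.5 and 98.1 on day 0, 71.3, 86.1 and 85.0 in TGFβ-iTreg cells and 306, 494 and 456 in mTO-iTreg cells, again high in mTO-iTreg cells alone (2.12 ± 0.24, adjusted p = 2.2e-05, and 2.34 ± 0.24, adjusted p = 1.7e-05). Ppp1r15a encodes GADD34, which restores eIF2 by removing the phosphate. It was 986, 1064 and 1069.8 on day 0, 44.3, 129.5 and 124 in TGFβ-iTreg cells and 313, 326 and 276 in mTO-iTreg cells. Both cultured groups were below day 0 (-3.52 ± 0.31, adjusted p = 1.1e-05, and -1.77 ± 0.31, adjusted p = 7.2e-04). Ppp1r15a was 3.07-fold higher in mTO-iTreg than in TGFβ-iTreg cells (1.75 ± 0.31, adjusted p = 0.0012). The fall of Atf4 in TGFβ-iTreg cells (-0.61 ± 0.16, adjusted p = 0.018) was lost in 9 of 22 alternatives (adjusted p up to 0.16), including leaving out replicate 2 or 3 of day 0 or replicate 1 or 2 of TGFβ-iTreg cells.

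Of the 11 listed mTOR and MNK genes, 1 was below its day 0 level in TGFβ-iTreg cells (Rps6kb1), 2 were so in mTO-iTreg cells (Rheb and Rps6kb1), and 2 (Mknk1 and Rheb) were lower in mTO-iTreg than in TGFβ-iTreg cells; Mtor, Rptor, Mlst8, Tsc1 and Tsc2 were among the 8 that passed in no comparison. Rheb, the GTPase that activates mTOR, was 464 ± 87.4, 545 ± 79.7 and 268 ± 44.2 and lower in mTO-iTreg than in TGFβ-iTreg cells (-1.02 ± 0.19, adjusted p = 0.0016). Rps6kb1, the S6 kinase gene, was 294 ± 45.0, 146 ± 32.4 and 173 ± 27.5 and lower than on day 0 in TGFβ-iTreg cells (-1.03 ± 0.23, adjusted p = 0.0083, and 0.10 without the shallowest day 0 and TGFβ-iTreg libraries). Larp1, the TOP-binding protein gene, was 1160.0 ± 256, 1449 ± 233 and 2515 ± 396 and rose in mTO-iTreg cells (1.13 ± 0.18, adjusted p = 3.4e-04). Larp4, which binds poly(A), was higher in mTO-iTreg than in TGFβ-iTreg cells (0.95 ± 0.20, adjusted p = 0.0035). Gtpbp1, a GTPase of ribosome rescue, rose in mTO-iTreg cells (1.23 ± 0.17, adjusted p = 1.3e-04). Its rise in TGFβ-iTreg cells (0.53 ± 0.17, adjusted p = 0.049) and that of Metap2, which removes the start methionine (0.48 ± 0.15, adjusted p = 0.036), were lost in 15 and 9 of 22 alternatives, the former without any single day 0 or TGFβ-iTreg library or mTO-iTreg replicate 2 or 3, and the latter without day 0 replicate 1 or 2 or any TGFβ-iTreg library. Tpt1, a long-known TOP mRNA, was 52146 ± 2798, 33735 ± 3272 and 31645 ± 2559 and fell in TGFβ-iTreg cells (-0.63 ± 0.11, adjusted p = 0.0013), a call lost with quantile normalization (adjusted p = 0.50). Tpt1 also fell in mTO-iTreg cells against day 0 (-0.72 ± 0.11, adjusted p = 1.8e-04 in the main limma fit), a call not followed through the alternatives here. Dph3, needed for the diphthamide on eEF2, was lower in mTO-iTreg than in TGFβ-iTreg cells (-1.41 ± 0.30, adjusted p = 0.0038). Nck1, an adaptor that limits eIF2 phosphorylation, fell in mTO-iTreg cells (-1.08 ± 0.30, adjusted p = 0.014), a call lost with equal totals without mitochondrial genes and Rn45s, and without day 0 replicate 2 or mTO-iTreg replicate 3 (adjusted p up to 0.061). None of 9 tested mitochondrial translation factor genes passed in any comparison.

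By mean level, 13 of the 58 tested genes were highest on day 0, 20 in TGFβ-iTreg cells and 25 in mTO-iTreg cells. In all, 35 passed in at least 1 comparison and 23 in none. The matching shares of all genes were not counted, so neither split is read as particular to these genes. The single comparisons called 18.6%, 33.9% and 26.6% of all genes. Summed normalized counts, with the deposited scaling, differed in direction by factor group (mean ± SD, n = 3, in the order day 0, TGFβ-iTreg, mTO-iTreg). The eIF2 group was 3354 ± 125, 3629 ± 295 and 5880.3 ± 356, highest in mTO-iTreg cells. The eEF1 group was 49990.4 ± 2719, 49419 ± 1970.4 and 39673 ± 2396, lowest in mTO-iTreg cells with this scaling. With every library set to the same total, the eEF1 sums of mTO-iTreg and day 0 libraries overlap, and the TGFβ-iTreg libraries lie above day 0. The group of eIF5, eIF5A, eIF5B and eIF6 was 9057 ± 410.0, 15042 ± 1302 and 12385 ± 1575, lowest on day 0. Single genes made most of the first and last of these differences: Eif5a gave 6149 ± 427, 12806 ± 1242 and 10224 ± 1066 of the eIF5 to eIF6 sums, in which Eif5 was highest on day 0 and Eif5b lowest in TGFβ-iTreg cells, and Eif2s2 gave 1026 ± 174, 979 ± 144 and 3355 ± 472 of the eIF2 group. The eIF4 group sums were 14025 ± 650.0, 13671 ± 541 and 13241 ± 169.9. With the deposited scaling the mTO-iTreg libraries were just below all day 0 libraries and overlapped TGFβ-iTreg cells. Normalized counts of all genes summed to 5621106.5 to 6096317.3 per library on day 0 and 4944034.2 to 5150264.5 in mTO-iTreg cells. The order against day 0 reverses when every library is set to the same total, with the mTO-iTreg libraries then above all day 0 libraries. Of the 11 eIF4 members, 3 rose and 1 fell in mTO-iTreg cells against day 0, where 19.4% and 14.5% of all genes did.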

How the data were processed

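A modified form of CEL-Seq, which reads the 3′ ends of transcripts, gave the 9 libraries, per the labels' protocols. BWA, the mm10 build and DESeq2 are named in the submitters' processing notes. Their versions, and how strand was treated, are not stated in the labels or notes. The deposited values are counts divided by 1 size factor per library by the authors, with decimal commas. Dividing by the value of a single count gave whole numbers within 0.1 for 100% of values, and their sums are the depths given. The 10983 rows with at least 5 in at least 3 of 9 libraries were tested.

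Log2(value + 1) was fitted with limma 3.58.1 in R 4.3.3, with 3 group means, an empirical Bayes variance trend and 6 residual degrees of freedom, Benjamini-Hochberg adjustment over all tested rows and a threshold of 0.05. The fit was tested on simulated data. Tables and figures used Python 3.11.15, pandas 2.3.3, numpy 2.4.6 and matplotlib 3.10.9. Positions are from GENCODE M21 (58 of 59 genes matched by name), and promoter windows from RefSeq (46 of 59). Counting intervals and floors cover counting error only.

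The genes named were all members, the 12 largest called members per comparison among them, and up to 6 called genes per comparison of the list of other translation genes. The members, lists and tests were chosen with earlier results of these data known. Alternatives changed the pseudocount, filter, scaling, groups fitted, variance trend, block and model, or left out libraries; in all, 22 were run.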

Additional observations from a re-analysis of the deposited data

How the results depend on the processing

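No called member reversed direction in any of the 22 alternatives. All 22 kept the call and direction of 6 of the 14 genes called in TGFβ-iTreg cells against day 0, of 17 of 27 in mTO-iTreg cells against day 0, and of 18 of 24 between the cultured groups. The 10 rises in TGFβ-iTreg cells became 21 with equal totals, with or without mitochondrial genes and Rn45s, 5 without the variance trend and 5 without the shallowest day 0 and TGFβ-iTreg libraries, and ranged from 6 (without day 0 replicate 1) to 10 when 1 library was left out. The 4 falls became 2 without the variance trend. The number of all genes called there, 2040, was 1355 without the variance trend and 1142 without the shallowest libraries. Of all genes, 1074 rose there, which became 1791 with equal totals and 1783 with totals set without mitochondrial genes and Rn45s. The 10 falls in mTO-iTreg cells against day 0 became 6 with equal totals, with or without mitochondrial genes and Rn45s. Of all genes, 1597 fell in that comparison, which became 1148 and 1023. Of the 44, 31 and 34 members without a call, 14, 8 and 8 passed in at least 1 alternative, in the order of the comparisons. The causes were not tested. Between the cultured groups, leaving out 1 library gave 8 to 12 higher and 11 to 15 lower.

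Replicate numbers are shared between groups, but nothing in the labels says what a shared number means, so the numbers were not taken as pairs. Same-numbered libraries had deviations from their group means that correlated at -0.05 to 0.06, and 5 of 9 libraries were closest to their own number. These values do not settle whether the libraries were paired. With the replicate block the 58 genes split into 10 higher and 3 lower, 16 and 9, and 11 and 14 in the order of the comparisons, and 1938, 3670 and 2838 of all genes were called. The planned edgeR and DESeq2 fits were not run, and limma-voom on the recovered counts gave 8 and 3, 18 and 10, and 13 and 14. Of the tested members, Eef2k, Eif2ak4, Eif2b3, Eif4ebp1 and Eif2ak3 had the fewest day 0 counts (48, 49, 53, 64 and 90 over 3 libraries), where a single count is worth up to 2.69 normalized counts.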
